A study of Mus musculus with 6 samples.

Results

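Adventitial fibroblasts were taken here as the lung barcodes of a single-cell experiment that carried stromal genes together with Pi16, Dpt or Lum, and 308 of 25704 barcodes that passed a quality gate met this rule. A barcode passed the gate with at least 1000 unique molecular identifiers (UMIs, each standing for 1 captured RNA molecule), at least 500 genes and at most 10% mitochondrial UMIs. A member then had UMIs of at least 2 of the 5 stromal genes Col1a1, Col1a2, Col3a1, Pdgfra and Mfap4, at least 2 UMIs summed over Pi16, Dpt and Lum, and no fewer of these than of the alveolar fibroblast genes Npnt, Tcf21 and Limch1. It also had no UMI of Cdh5, a junction protein of endothelium, and none of Ptprc, the pan-leukocyte gene that encodes CD45. Members were thus chosen by their own UMIs of these 13 genes, and the levels of these genes are given below as description only.

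The cells came from the right lungs of 6 male hCTLA4 mice aged 12 weeks, in which part of the mouse gene is replaced by exons of human CTLA4 so that an antibody to the human protein can bind. All 6 had received bleomycin, a drug that injures the lung and leads to fibrosis, at 1.25 U/kg in 2 oropharyngeal doses given 2 weeks apart. From day 21, counted from the second dose, 3 mice received an IgG1 isotype control antibody and 3 received ipilimumab, an antibody that blocks CTLA4, at 5 mg/kg by intraperitoneal injection 2 times a week for 4.5 weeks. Each mouse gave 1 library made with 10x 3′ chemistry, which counts molecules at their 3′ ends. No mouse without bleomycin or without antibody is among the 6, so the levels below describe lungs after injury, and every comparison is of ipilimumab with IgG1.

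Adventitial fibroblasts lie in the connective tissue cuffs around airways and large vessels, apart from the alveolar fibroblasts within the walls of the air spaces. They build a loose matrix of collagen, small leucine-rich proteoglycans and elastic fibres, and they are known as a source of complement, chemokines and inhibitors of proteolysis. In injured tissue, fibroblasts can take on a contractile, matrix-producing state marked by Acta2 (α-smooth muscle actin), the myofibroblast. CTLA4 is an inhibitory receptor of T cells.

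The IgG1 mice contributed 30, 36 and 62 members and the ipilimumab mice 73, 31 and 76. Summed per mouse, these held 299357, 387069 and 583851 UMIs with IgG1 and 520160, 363141 and 745620 with ipilimumab. The median member had 8947, 10765 and 7696 UMIs in the IgG1 mice and 3929, 11833 and 8338 in the ipilimumab mice. The library of ipilimumab replicate 1 thus had the shallowest members, with 33 of 73 below 3000 UMIs, against 3, 4 and 14 in the IgG1 mice and 5 and 13 in the other ipilimumab mice.

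That library stood apart in other ways. Markers of lung epithelium summed to 3774 CPM (a gene's UMIs relative to all UMIs of the members of that mouse, counted per 1e6) in its members, against 10.3 to 79.9 CPM in the other 5 mice. Its most abundant epithelial gene was Sftpc, the surfactant protein C gene of alveolar type 2 cells, with 1507 UMIs spread over 23 members. Its macrophage markers stood at 861 CPM, led by the lysozyme gene Lyz2. The separation was not limited to that library. Macrophage markers stood at 53.4, 72.3 and 41.1 CPM with IgG1 and at 77.1 and 204 CPM in ipilimumab replicates 2 and 3, and epithelial markers at 23.4, 33.6 and 10.3 CPM with IgG1 and 79.9 and 52.3 CPM in those replicates. Leukocyte markers stood at 6.68, 28.4 and 22.3 CPM with IgG1 and 98.0, 35.8 and 36.2 CPM with ipilimumab, so all 3 lists were higher in every ipilimumab mouse than in every IgG1 mouse. In ipilimumab replicate 1, 37 of 73 members held at least 2 UMIs of 1 screened marker list, and over all mice 111 of 308 did. The screened lists were leukocyte, blood endothelial, lymphatic endothelial, epithelial and mesothelial. Below, barcodes with markers of other cell types are the ones found by this screen. Macrophage, T and B cell, neutrophil, Schwann cell, pericyte and smooth muscle lists were not screened, so barcodes with their UMIs could stay. The main results are therefore also given without ipilimumab replicate 1 where it moves them, and fold changes of sums without those 111 barcodes are given beside several of the genes they move. Those 111 were deeper, with a median of 11784 UMIs against 6837 in the other members. They held 1329912 of the 2899198 UMIs of all members. Leaving them out thus also removes depth, and the part of depth in the shifts was not tested. No gated barcode sequence was a member in more than 1 library.

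The defining markers of the cell type were present. Dcn, which encodes the proteoglycan decorin, was detected in 98.7% of members, in 49.3% of 71 alveolar fibroblasts gated in the same way on Npnt, Tcf21 and Limch1, and in 0.755% of 22635 Ptprc-positive barcodes without stromal genes, at median depths of 8410, 10561 and 6913 UMIs. The collagen gene Col14a1 was detected in 84.7% of members, 49.3% of alveolar fibroblasts and 1.02% of the Ptprc-positive barcodes. For Mfap5, a microfibril protein, the shares were 86.4%, 66.2% and 0.115%, and for Scara5, a ferritin receptor used as a marker of adventitial cells, 54.2%, 8.45% and 0.0530%. Dpp4, a marker of Pi16-rich fibroblasts in several organs that T cells also express, was found in 2.27% of members, with a pooled level of 3.10 CPM against 45.7 CPM in barcodes with 10 to 100 UMIs, which hold free RNA.

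Markers of other cell types varied by list. The mesothelial markers Msln and Lrrn4, the pericyte markers Higd1b and Rgs5, the endothelial gene Tie1, the Schwann cell gene Sox10, the T cell gene Cd3d and the neutrophil gene Retnlg had no UMI in any member, while other genes of some of these lists did. The pericyte list summed to 158 to 247 CPM over the 6 mice, led by the PDGF receptor gene Pdgfrb (273 UMIs), and the blood endothelial list to 70.2 to 181 CPM, led by Ramp2 (191 UMIs). The Schwann cell list reached at most 38.8 CPM, in IgG1 replicate 2, led by Ncam1 (36 UMIs). Fibroblast lists were higher, with alveolar fibroblast markers at 2222 to 2746 CPM, led by Inmt, which encodes a methyltransferase.

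Genes of peribronchial fibroblasts, the stromal cells under the airway lining, had the widest relative spread between mice of the 3 fibroblast lists (adventitial, alveolar and peribronchial). Their 7 markers summed to 1330, 496 and 2184 CPM in the IgG1 mice and 2824, 570 and 1022 CPM in the ipilimumab mice. Smooth muscle markers stood at 428, 129 and 444 CPM with IgG1 and 884, 306 and 317 CPM with ipilimumab. Both lists were lowest in IgG1 replicate 2 and highest in ipilimumab replicate 1, and the groups overlapped.

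**Figure D1:**
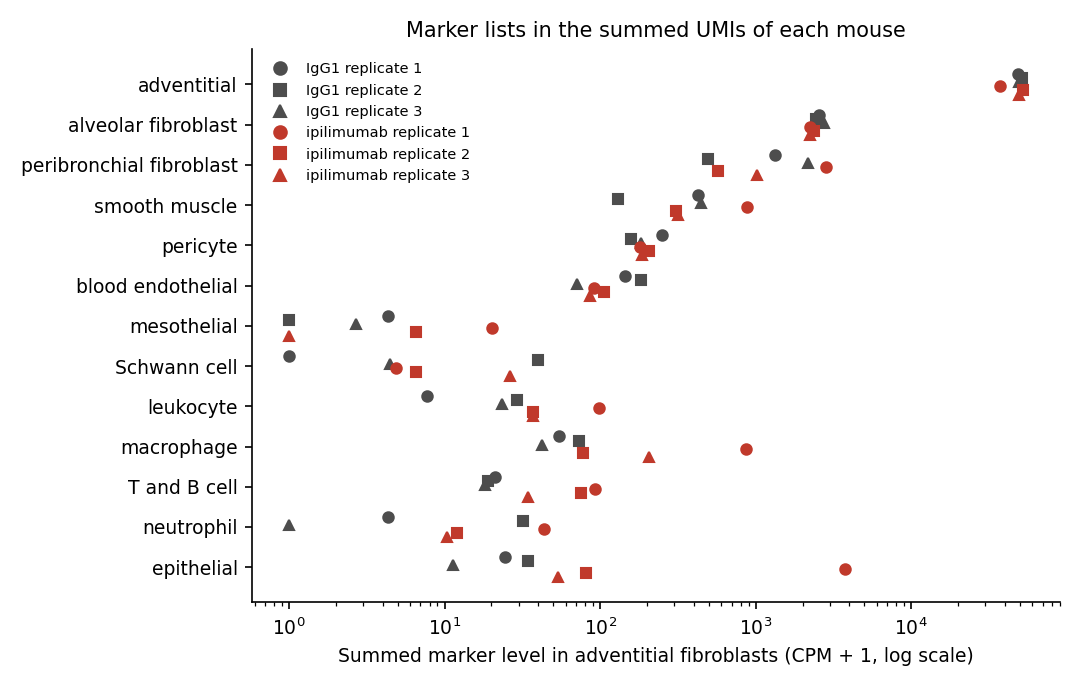
Summed CPM + 1 (log axis) of 13 marker lists in the adventitial fibroblasts of each mouse, with grey symbols for the 3 IgG1 and red for the 3 ipilimumab mice. The adventitial list lies at 37102 CPM in ipilimumab replicate 1 and at 48895 CPM or more in the other mice, and the epithelial and macrophage lists are highest in ipilimumab replicate 1.

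Barcodes at the edge of the rule were found most in ipilimumab replicate 1. At exactly 2 UMIs of Pi16, Dpt and Lum there were 34 members, 15 of them in ipilimumab replicate 1, while 20 barcodes met the rest of the rule with 1 UMI and were left outside. Another 42 barcodes were lost through a Ptprc UMI, 20 of them in ipilimumab replicate 1, and 8 through a Cdh5 UMI, all 8 in that replicate. Exactly 2 stromal genes were detected in 24 members, 12 of them in ipilimumab replicate 1, and all 5 in 125 members. At least 1 UMI of Npnt, Tcf21 or Limch1 was present in 193 members, and 8 held as many UMIs of these genes as of Pi16, Dpt and Lum.

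In matrix genes the members were rich in every mouse. Gsn, which encodes the actin-severing protein gelsolin, took the most UMIs of the 28 adventitial markers, at 20552, 23591 and 24228 CPM in the IgG1 mice and 18584, 24900 and 23980 CPM in the ipilimumab mice (from here on CPM values per mouse are scaled between mice by edgeR's TMM factors). Dcn stood at 12997, 13274 and 11643 CPM with IgG1 and at 7645, 13171 and 12596 CPM with ipilimumab, low only in ipilimumab replicate 1. Pi16, a peptidase inhibitor gene on chromosome 17 (29317680 to 29330593, plus strand, GRCm38), had 876, 668 and 428 CPM with IgG1 and 373, 1019 and 608 CPM with ipilimumab. Dpt, the gene of dermatopontin, a small protein that binds decorin and collagen, varied less, at 1239, 1217 and 1357 CPM against 1270, 880 and 1339 CPM. Lum, which encodes lumican, a proteoglycan of collagen fibrils, had 613, 607 and 498 CPM against 432, 389 and 519 CPM. For these 3 genes of the rule the mice of the groups overlapped.

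Side by side with alveolar fibroblasts, the members differed in secreted genes. The CPM values in this paragraph are pooled over all mice, and since the rule divided the types no difference was tested. The alveolar pool is uneven, with 346669 of its UMIs from ipilimumab replicate 1 and 21034, 76651 and 105828 from the IgG1 mice. The adventitial marker list in it ran from 6418 CPM in IgG1 replicate 1 to 48503 CPM in IgG1 replicate 3, the latter close to the 49605 CPM of that mouse's members. Dcn stood at 10946 CPM in members and 2551 CPM in alveolar fibroblasts, and C3, the central complement gene, at 2358 and 720 CPM. Serpinf1, a secreted inhibitor of vessel growth, had 627 and 60.9 CPM, and Tgfbi, a matrix adapter protein gene induced by TGF-β, had 231 and 7.31 CPM. The eosinophil chemokine gene Ccl11 had 271 and 42.7 CPM. The reverse held for Itga8, an integrin gene, at 25.5 CPM in members and 663 CPM in alveolar fibroblasts, for Spon1, a matrix gene, at 103 and 687 CPM, and for the hepatocyte growth factor gene Hgf at 22.1 and 145 CPM.

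Members differed among themselves. Dpt was detected in 91.6% of the 308, Pi16 in 62.7% and Lum in 58.4%, and all 3 genes together in 28.2%. Hhip, which encodes an inhibitor of hedgehog ligands and marks peribronchial fibroblasts, was outside the rule and was detected in 33.1% of members, in 18.3% of alveolar fibroblasts and in 0.0751% of the Ptprc-positive barcodes. By mouse its share was 40.0%, 25.0% and 43.5% with IgG1 and 31.5%, 32.3% and 27.6% with ipilimumab. Pi16 without Hhip was found in 153 members, Hhip without Pi16 in 62, both in 40 and neither in 53. The median member with a Hhip UMI had 9541 UMIs and one without had 6989.

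Members with Pi16 and members with Hhip differed in expression. In the 153 members with Pi16 alone, Clec3b, a plasminogen-binding protein gene, stood at 3011 CPM (pooled UMIs, no test), against 232 CPM in the 62 with Hhip alone. Ly6a, the gene of the surface antigen Sca-1, had 1060 and 43.4 CPM, and the stem and progenitor antigen gene Cd34 had 595 and 56.6 CPM. The insulin-like growth factor binding protein gene Igfbp6 had 1589 and 204 CPM. Each of these genes was higher in members with Pi16 than in members without it in 6 of 6 mice.

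The members with Hhip alone carried contractile and airway-associated genes. These 62 met the rule but held little of the adventitial markers Clec3b, Ly6a and Cd34, so the name adventitial describes them less well. The peribronchial marker Cdh4 stood at 1038 CPM in them and at 32.7 CPM in members with Pi16 alone. Tagln, an actin-binding protein gene of smooth muscle, stood at 938 CPM in them and at 17.9 CPM in members with Pi16 alone, and Acta2 at 489 and 28.8 CPM. Aspn, a small proteoglycan gene, had 991 and 73.1 CPM, Bmp5, a bone morphogenetic protein gene, 440 and 33.4 CPM, and Cd44, the hyaluronan receptor gene, 1021 and 206 CPM. At least 5 of these genes were higher in members with Hhip than in members without it in 6 of 6 mice. Igfbp3, which encodes another insulin-like growth factor binding protein, had 978 and 70.0 CPM and was higher with Hhip in 5 of 6 mice. Tnc, which encodes the injury-associated matrix protein tenascin-C, was at 385 CPM with Hhip alone and at 0.777 CPM with Pi16 alone. Lgr6, a receptor gene of peribronchial fibroblasts, was at 90.6 CPM with Hhip alone and had no UMI in members with Pi16. Members with both genes resembled the Pi16 pattern for Clec3b (2434 CPM) and Tagln (26.1 CPM), but held 146 CPM of Acta2.

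**Figure D2:**
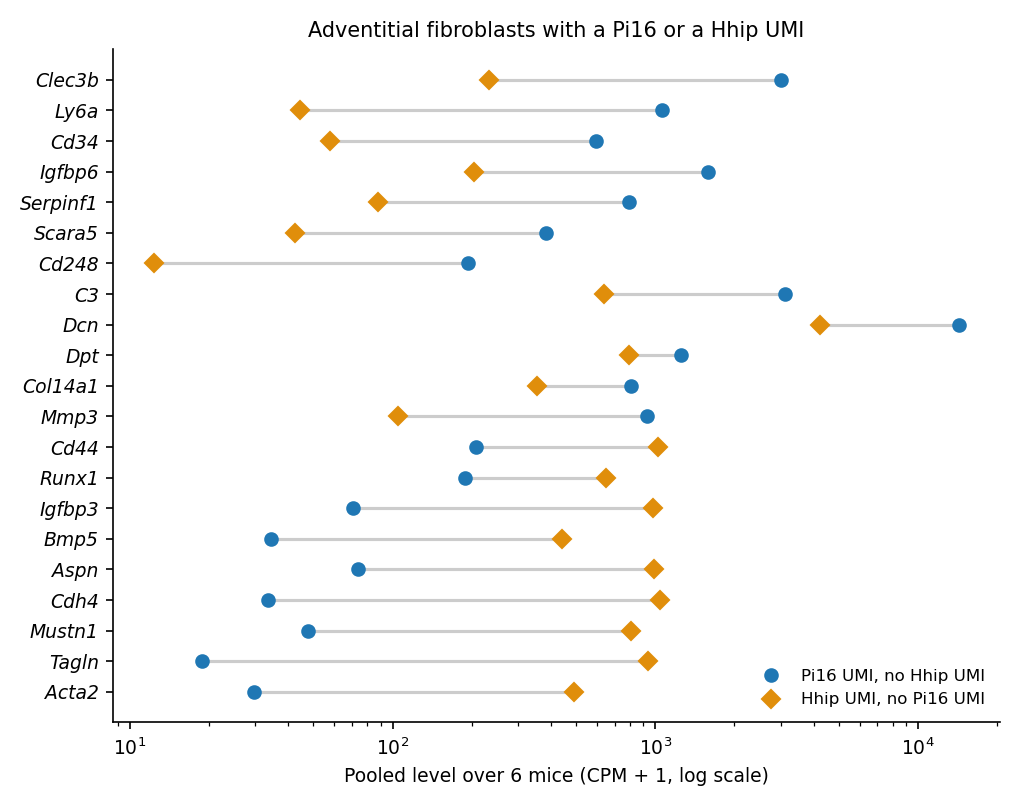
Pooled CPM + 1 over 6 mice (log axis) of 21 genes in the 153 members with a Pi16 UMI and no Hhip UMI (circles) and in the 62 members with a Hhip UMI and no Pi16 UMI (diamonds). Genes from Clec3b down to Mmp3 lie higher in the first set and those from Cd44 down to Acta2 in the second.

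The share of adventitial fibroblasts in each library was compared first. Of gated barcodes, 0.662%, 0.833% and 1.85% were members in the IgG1 mice (95% Clopper-Pearson intervals 0.447 to 0.944%, 0.584 to 1.15% and 1.42 to 2.37%). In the ipilimumab mice the shares were 1.41%, 0.745% and 1.82% (intervals 1.11 to 1.77%, 0.507 to 1.06% and 1.44 to 2.27%). The groups overlapped throughout, with 1 mouse of each near 1.8%. The means were 1.12% ± 0.644 (SD, n = 3) with IgG1 and 1.33% ± 0.542 (SD, n = 3) with ipilimumab, a difference of 0.209 percentage points (exact two-sided permutation test, p = 0.8, n = 3 per group). Taken of barcodes without Ptprc, the shares were 7.06%, 13.2% and 27.9% with IgG1 and 8.06%, 8.22% and 14.5% with ipilimumab, so the direction of the difference turned, and its exact p was 0.7.

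Among fibroblasts the 2 groups did not overlap. Adventitial members made up 90.9%, 85.7% and 88.6% of adventitial plus alveolar fibroblasts in the IgG1 mice and 73.7%, 73.8% and 81.7% in the ipilimumab mice. The lowest IgG1 mouse lay above the highest ipilimumab mouse, and the means were 88.4% ± 2.60 and 76.4% ± 4.59 (SD, n = 3 each). The difference of −12.0 percentage points gave p = 0.1 in an exact two-sided permutation test, which is the smallest that 3 mice against 3 allow, so this test cannot pass 0.05 here. The alveolar counts behind these shares were small, at 3, 6 and 8 barcodes with IgG1 and 26, 11 and 17 with ipilimumab. Without ipilimumab replicate 1 the difference was −10.6 points. With members limited to barcodes with no UMI of the alveolar genes it was −16.0 points and the groups overlapped (exact p = 0.3), and without barcodes with markers of other cell types it was −12.0 points, also with overlap (exact p = 0.2).

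**Figure D3:**
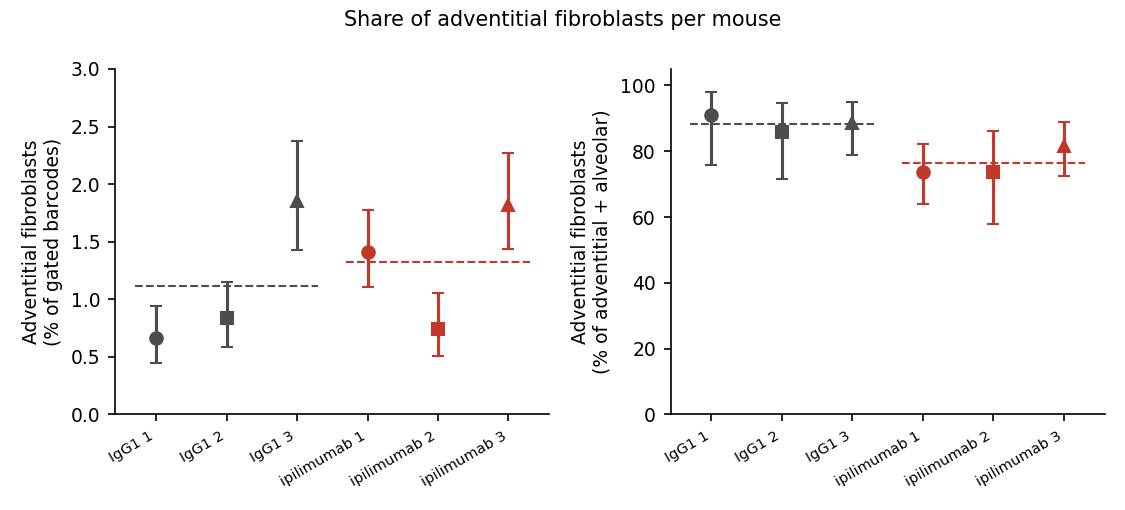
Adventitial fibroblasts in each mouse as a percentage of gated barcodes (left) and of adventitial plus alveolar fibroblasts (right), with 95% Clopper-Pearson intervals that cover counting error only and dashed lines at the group means. The groups overlap on the left, and on the right the IgG1 mice lie between 85.7% and 90.9% and the ipilimumab mice between 73.7% and 81.7%.

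Gene expression was then compared between treatments on UMIs summed over the members of each mouse. Of 32285 genes, 6270 had enough counts to be tested, and edgeR's quasi-likelihood test called 0 of them (0.0%) at an adjusted p under 0.05 with an absolute log2 fold change over 0.3. The smallest adjusted p was 0.521. An unadjusted p under 0.05 was reached by 288 genes (4.59%), 182 higher with ipilimumab (2.90% of tested genes) and 106 lower (1.69%). The mice did not overlap for 316 genes higher (5.04%) and 322 lower (5.14%) with ipilimumab. The median log2 fold change was −0.000509 with 49.9% of genes above 0, and the median standard error was 0.30. DESeq2 on the same sums called 4 genes, Cxcl10, Ccl2, Cd74 and Aqp1, all higher with ipilimumab. In simulated sums of the same depth, edgeR called 87 of 88 genes changed by 2 on the log2 scale and 29 of 93 changed by 1, so at this number of mice and this simulated spread most changes of 1 on that scale would have gone uncalled. Cdr2l, Cd74, Aqp1 and the macrophage markers Lyz2 (3.58) and Chil3 (2.13) were among genes with fitted log2 fold changes over 2. They were not called, so the simulation does not carry over to every gene. The p-values measure the spread between mice.

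The genes with the smallest p whose mice did not overlap were all higher with ipilimumab, and none passed the test after adjustment. Dram1, a p53 target gene that acts in autophagy (chromosome 10, 88322804 to 88379080, GRCm38), had 38.1, 30.2 and 25.7 CPM with IgG1 and 77.8, 77.3 and 86.0 CPM with ipilimumab. Every ipilimumab mouse lay well above the highest IgG1 mouse, and the log2 fold change was 1.39 ± 0.28 (SE; edgeR adjusted p = 0.521). Irgm1, an interferon-induced GTPase gene on chromosome 11 (48861968 to 48871683), had 62.3, 63.2 and 79.0 CPM with IgG1 and 147, 116 and 207 CPM with ipilimumab. Its log2 fold change was 1.20 ± 0.26 (adjusted p = 0.521), and it was 0.83 without the barcodes with markers of other cell types.

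Signalling genes stood among them. Ripk2, the kinase gene of the NOD receptors that sense bacterial wall fragments, had 17.3, 16.5 and 12.9 CPM with IgG1 and 41.0, 32.7 and 55.4 CPM with ipilimumab (log2 fold change 1.53 ± 0.37, edgeR adjusted p = 0.632). Rdh10, which encodes an enzyme of retinoic acid synthesis, had 31.2, 33.0 and 38.6 CPM against 88.1, 56.5 and 94.7 CPM (1.22 ± 0.29, adjusted p = 0.632, and 0.73 in members with a Pi16 UMI). In both, all 3 ipilimumab mice lay above all 3 IgG1 mice, as the choice of this list required. Apart from Cd74 and Igkc, the rest of that list was Tnfaip2, Ankrd28, Pcdh9 and Cdr2l. Tnfaip2 is a gene induced by tumour necrosis factor, Ankrd28 encodes a phosphatase subunit and Pcdh9 is a protocadherin gene. The log2 fold changes were 1.51 for Tnfaip2, 1.12 for Ankrd28, 1.16 for Pcdh9 and 2.28 for Cdr2l. That of Ankrd28 was 0.55 without the barcodes with markers of other cell types.

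The remaining entries of that list were genes of B cells and antigen-presenting cells. The study also listed 1 of them, Cd74, as higher with ipilimumab in its cluster of alveolar type 2 cells. Cd74, the invariant chain of MHC class II, had 24.2, 19.2 and 23.9 CPM with IgG1 and 205, 107 and 55.4 CPM with ipilimumab (log2 fold change 2.41 ± 0.50, edgeR adjusted p = 0.618). Igkc, the kappa light chain gene, had 13.8, 13.7 and 11 CPM against 55.3, 62.4 and 29.1 CPM (1.88 ± 0.42, adjusted p = 0.521). In ipilimumab replicate 2, 34 of 36 Cd74 UMIs and 16 of 21 Igkc UMIs each came from 1 barcode. Without ipilimumab replicate 1 the log2 fold change of Cd74 was 1.78, and with at least 4 UMIs of Pi16, Dpt and Lum per member it was 1.59. Without ipilimumab replicate 3 it was 2.80 and was called (edgeR adjusted p = 0.0225), and over the settings that keep all mice it ran up to 3.41. In the barcodes of free RNA these genes stood at 3199 and 2905 CPM. T and B cell markers summed to 20, 18.1 and 17.1 CPM in the members of the IgG1 mice and to 92.3, 74.4 and 33.5 CPM with ipilimumab. The macrophage, leukocyte and epithelial lists given above were likewise higher in every ipilimumab mouse, and the part of these 4 lists in the results was not tested.

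Several chemokine genes were higher in every ipilimumab mouse than in every IgG1 mouse, although none passed the edgeR test. Of 17 chemokine, cytokine and acute phase genes tested, 0 were called, and 10 fold changes were above and 7 below 0, down to −1.39. With no filter on low counts, edgeR called Cxcl10 and Ccl2 higher and Ccl8 lower (log2 fold change of Ccl8 −1.37, adjusted p = 0.0110). The mice did not overlap for 4 genes higher (Cxcl10, Ccl2, Cxcl1, Ccl19) and 1 lower (Cxcl14) with ipilimumab, where 5.04% and 5.14% of all genes did so, and the median log2 fold change was 0.10 against −0.000509 over all genes. Cxcl10, the interferon-induced ligand of the T cell receptor CXCR3 (chromosome 5, 92346638 to 92348889, minus strand), had 149, 429 and 191 CPM with IgG1 and 569, 826 and 918 CPM with ipilimumab. Every ipilimumab mouse lay above every IgG1 mouse, with IgG1 replicate 2 the nearest. The log2 fold change was 1.59 ± 0.38 (edgeR adjusted p = 0.737; DESeq2 adjusted p = 0.00712).

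Cxcl10 UMIs were unevenly spread over cells. It was detected in 20%, 36.1% and 33.9% of members in the IgG1 mice and in 42.5%, 48.4% and 60.5% in the ipilimumab mice. A single barcode gave 173 of the 278 UMIs of ipilimumab replicate 2, and another 95 of the 156 of IgG1 replicate 2. The log2 fold change was 2.25 in members with a Pi16 UMI 2.08 in members without a Hhip UMI, 2.70 in members with no UMI of the alveolar genes, and 0.77 without the barcodes with markers of other cell types. Without IgG1 replicate 2 it was 2.17 and was called (edgeR adjusted p = 0.0288), and without ipilimumab replicate 1 it was 1.77 and was not (adjusted p = 0.577).

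Ccl2, the chemokine of monocytes (chromosome 11, 82035571 to 82037453), was named after its values were seen. It had 38.1, 173 and 97.3 CPM with IgG1 and 227, 502 and 344 CPM with ipilimumab, and the groups did not overlap. Its log2 fold change was 1.76 ± 0.48 (edgeR adjusted p = 0.832; DESeq2 adjusted p = 0.0106), and it was 2.65 without the barcodes with markers of other cell types. Cxcl1, a ligand that attracts neutrophils, had 644, 635 and 654 CPM with IgG1 and 731, 909 and 1456 CPM with ipilimumab (0.68 ± 0.23, adjusted p = 0.911), and without ipilimumab replicate 3, the highest mouse, its log2 fold change was 0.35, while in members with no UMI of the alveolar genes it was 2.55. Il6, the interleukin-6 gene, overlapped between groups, with 474, 788 and 566 CPM against 1125, 499 and 1049 CPM (0.55 ± 0.30, and −0.067 in members without a Hhip UMI). Over the settings that keep all mice, the log2 fold change of Il6 ran up to 1.29. Cxcl12, which holds leukocytes through CXCR4, also overlapped (0.37 ± 0.32, and 0.036 to 0.62 leaving out each mouse).

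**Figure D4:**
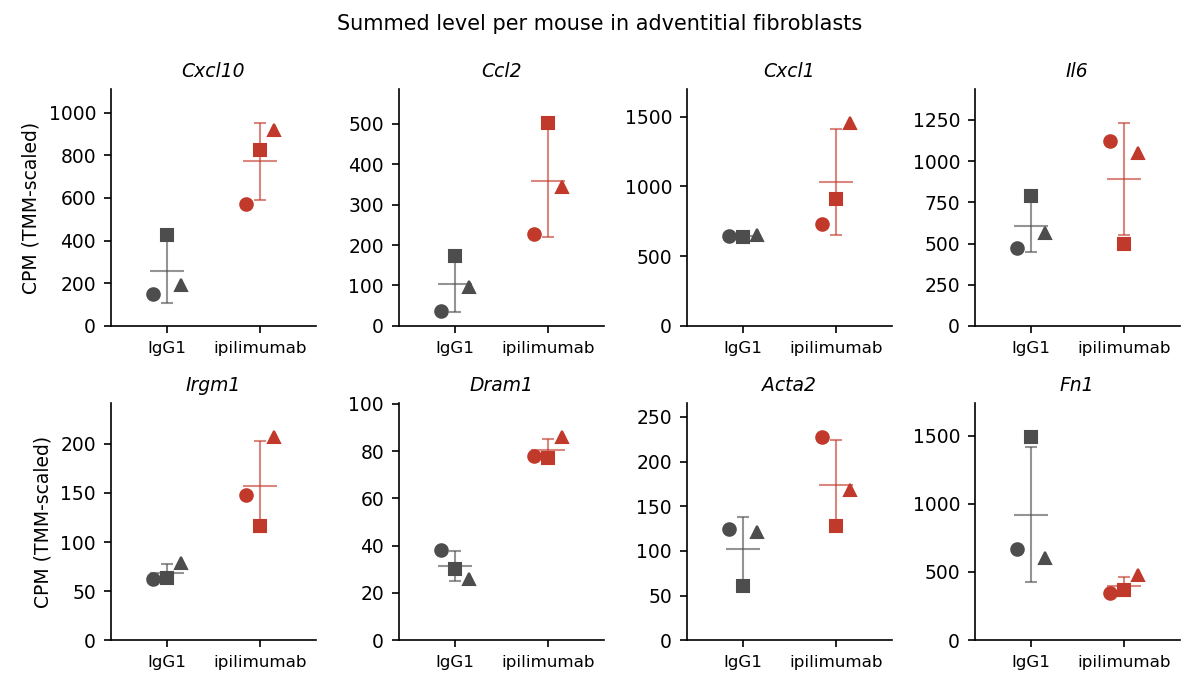
TMM-scaled CPM of 8 genes summed over the adventitial fibroblasts of each mouse (circles, squares and triangles for replicates 1 to 3), with the mean and SD of 3 mice per group. Cxcl10, Ccl2, Cxcl1, Irgm1, Dram1 and Acta2 are higher in every ipilimumab mouse than in every IgG1 mouse, Fn1 is lower in every one and Il6 overlaps, and none passed the edgeR test after adjustment.

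Interferon-response genes were divided in direction. Of 26 such genes tested, 15 had a positive and 11 a negative log2 fold change, with a median of 0.08, and 0 were called. The mice did not overlap for Irgm1, Iigp1 and Irf1, which were higher with ipilimumab, and for Bst2, which was lower, where 5.04% of all genes were higher and 5.14% lower without overlap. The values of Iigp1, another interferon-induced GTPase, were 149, 374 and 512 CPM with IgG1 and 688, 526 and 888 CPM with ipilimumab (1.0 ± 0.40, edgeR adjusted p = 0.999, and 0.57 in members without a Hhip UMI), an example chosen after its values were seen. Over the settings that keep all mice, its log2 fold change ran up to 1.76. The abundant antiviral gene Ifitm3 varied little, at 1665 to 1884 CPM in all 6 mice (0.05 ± 0.14). B2m, the light chain of MHC class I, was lowest in IgG1 replicate 1 at 543 CPM and lay between 918 and 1217 CPM in the other mice (0.17 ± 0.24).

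No fibrillar matrix gene passed the test. Outside the rule's own genes, 14 collagen genes were tested and 0 were called, with 12 fold changes below 0 and a median log2 fold change of −0.13. Col1a1, which is a gene of the rule and so is given by its levels alone, stood at 1423, 1758 and 1780 CPM with IgG1 and 1299, 1673 and 2317 CPM with ipilimumab, and the groups overlapped. Col14a1, a collagen that binds fibril surfaces, had 910, 772 and 711 CPM with IgG1 and 582, 603 and 694 CPM with ipilimumab. Its mice did not overlap, although the gap was small (−0.34 ± 0.17, edgeR adjusted p = 0.999), and the log2 fold change was 0.11 without the barcodes with markers of other cell types. It was 1 of 2 collagen genes without overlap, both lower with ipilimumab, as were 5.14% of all tested genes without overlap.

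The genes that process collagen had 16 tested, 0 called and a median of −0.15. The mice did not overlap for 1 gene, Plod2, a collagen lysyl hydroxylase. It was higher with ipilimumab, as were 5.04% of all tested genes without overlap. Serpinh1, the collagen chaperone, had a log2 fold change of −0.16 ± 0.18, and Pcolce2, which aids the cleavage of procollagen, one of −0.37 ± 0.19. Elastic fibre and microfibril genes had 15 tested, 0 called and a median of −0.15, with −0.21 ± 0.24 for the fibulin gene Fbln1 (0.080 without the barcodes with markers of other cell types) and −0.16 ± 0.18 for Mfap5. Of 13 proteoglycan genes 0 were called, and Dcn had −0.18 ± 0.18. Among 18 matrix proteases and inhibitors 0 were called. Timp3, an inhibitor of matrix metalloproteinases, had −0.37 ± 0.17 and Mmp3, the stromelysin gene, 0.39 ± 0.20, which became 0.070 and −0.56 in members with no UMI of the alveolar genes, and both overlapped between groups.

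Of 13 myofibroblast and fibrotic fibroblast genes, 0 were called, with 8 fold changes above 0 and a median of 0.14. Their summed level was 3177, 7519 and 2971 CPM with IgG1 and 2983, 2624 and 3222 CPM with ipilimumab, high only in IgG1 replicate 2, whose members include the Spp1-rich barcode described at the end. Acta2 on chromosome 19 (34241090 to 34255590) had 125, 60.4 and 121 CPM with IgG1 and 227, 128 and 168 CPM with ipilimumab. The groups were separated by a narrow gap, with a log2 fold change of 0.78 ± 0.29 (edgeR adjusted p = 0.964). In IgG1 replicate 1, 26 of 36 Acta2 UMIs came from 1 barcode. The log2 fold change was 1.92 in members with a Pi16 UMI, 1.32 in members with no UMI of the alveolar genes, and 0.55 both without ipilimumab replicate 1 and without the barcodes with markers of other cell types. The smooth muscle list, which includes Acta2 itself, was also highest in ipilimumab replicate 1. The part of smooth muscle RNA in the Acta2 values was not tested.

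Fn1, the fibronectin gene on chromosome 1 (71585520 to 71653200), went the other way. It had 668, 1489 and 606 CPM with IgG1 and 344, 369 and 475 CPM with ipilimumab, so every ipilimumab mouse lay below every IgG1 mouse. The log2 fold change was −1.21 ± 0.34 (edgeR adjusted p = 0.832). Of the 542 UMIs in IgG1 replicate 2, 293 came from 1 barcode and 152 from another, and leaving that mouse out gave −0.67. It was −0.48 in members with a Pi16 UMI, −0.35 without the barcodes with markers of other cell types and −3.87 in members with no UMI of the alveolar genes. Runx1, a transcription factor gene linked to the myofibroblast state, had 145, 236 and 209 CPM with IgG1 and 406, 226 and 510 CPM with ipilimumab, overlapping at ipilimumab replicate 2 (0.95 ± 0.29, adjusted p = 0.832, and 0.45 in members with no UMI of the alveolar genes).

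Ebf2, a transcription factor gene on the list of adventitial markers, was also lower with ipilimumab and was named after its values were seen. It had 204, 79.7 and 73.5 CPM with IgG1 and 34.8, 38.6 and 48.1 CPM with ipilimumab, without overlap (−1.48 ± 0.40, edgeR adjusted p = 0.832). The highest value by far was that of IgG1 replicate 1, and leaving it out gave a log2 fold change of −0.89. Without the barcodes with markers of other cell types it was −0.04. The surface gene Ly6a had a log2 fold change of −0.44 ± 0.23, with its lowest value, 424 CPM, in ipilimumab replicate 1. Without the barcodes with markers of other cell types it was 0.011.

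Genes of complement, growth control and stress gave no call. Of 12 complement genes, C3 had 1956, 2514 and 1809 CPM with IgG1 and 1645, 2048 and 4194 CPM with ipilimumab, high only in ipilimumab replicate 3 (0.33 ± 0.34). Serping1, the inhibitor of the first complement component, had −0.21 ± 0.18. Of 19 TGF-β and BMP signalling genes, 10 fold changes were above and 9 below 0, with −0.34 ± 0.26 for the TGF-β co-receptor gene Tgfbr3. The 8 Wnt genes tested included the ligand gene Wnt5a (−0.40 ± 0.41) and the inhibitor gene Sfrp1 (0.34 ± 0.27), and both overlapped between groups.

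Senescence genes were uneven. The study followed senescence by other assays, p16 staining of lung sections and a β-galactosidase stain of cells. Cdkn1a, the p21 gene that arrests the cell cycle, had 658, 610 and 393 CPM with IgG1 and 498, 805 and 420 CPM with ipilimumab, overlapping fully (0.05 ± 0.27, and −0.39 without the barcodes with markers of other cell types). Cdkn2a, the p16 gene, was detected in 1.62% of members and had too few UMIs to be tested. Igfbp3, a secreted senescence-associated protein gene that was high in the Hhip members above, had a log2 fold change of −0.52 ± 0.70, which was 0.41 in members without a Hhip UMI and −1.24 to 0.37 leaving out each mouse. Gdf15, a stress cytokine gene named after its values were seen, had 13.8, 30.2 and 31.2 CPM with IgG1 and 67.6, 80.2 and 36.4 CPM with ipilimumab (1.17 ± 0.39, edgeR adjusted p = 0.911). Its level in barcodes of free RNA was 953 CPM.

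Of 17 lipid, retinoid and detoxification genes, 0 were called. Mt1, a metallothionein that binds zinc and copper, had 2018, 2165 and 2643 CPM with IgG1 and 3661, 2493 and 3579 CPM with ipilimumab, overlapping at ipilimumab replicate 2 (0.51 ± 0.18, edgeR adjusted p = 0.946). Over the settings that keep all mice, the log2 fold change of Mt1 ran from 0.15 to 0.69. Mt2 had 0.41 ± 0.23, and 0.15 to 0.64 leaving out each mouse. Rbp4, the retinol carrier gene, named after its values were seen, had 350, 242 and 578 CPM against 166, 262 and 239 CPM, with overlap (−0.83 ± 0.30, and −0.40 without IgG1 replicate 3). Of 15 growth factor genes 0 were called, and the mice did not overlap for Fgf2 and Pdgfa, both lower with ipilimumab, as were 5.14% of all tested genes without overlap. Immediate early genes (21 tested), adhesion and surface genes (15), ribosomal protein genes (82) and mitochondrially encoded genes (13) had medians of 0.05, 0.02, 0.05 and 0.04, with 0 called in each.

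Aqp1, a water channel gene of capillary endothelium, was 1 of the 4 genes that DESeq2 called and was named after its values were seen. It had 0, 19.2 and 14.7 CPM with IgG1 and 174, 68.4 and 43.7 CPM with ipilimumab (log2 fold change 2.92 ± 0.77, edgeR adjusted p = 0.832). It was detected in 6.17% of members, and a single barcode held 45 of its 85 UMIs in ipilimumab replicate 1 and 22 of 23 in ipilimumab replicate 2. Without ipilimumab replicate 1 the log2 fold change was 2.11, and leaving out other mice gave up to 3.33. The settings that keep all mice gave 2.66 to 3.91. Blood endothelial markers, at 144, 181 and 70.2 CPM with IgG1 and 90.4, 104.6 and 84.5 CPM with ipilimumab, overlapped between groups.

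**Figure D5:**
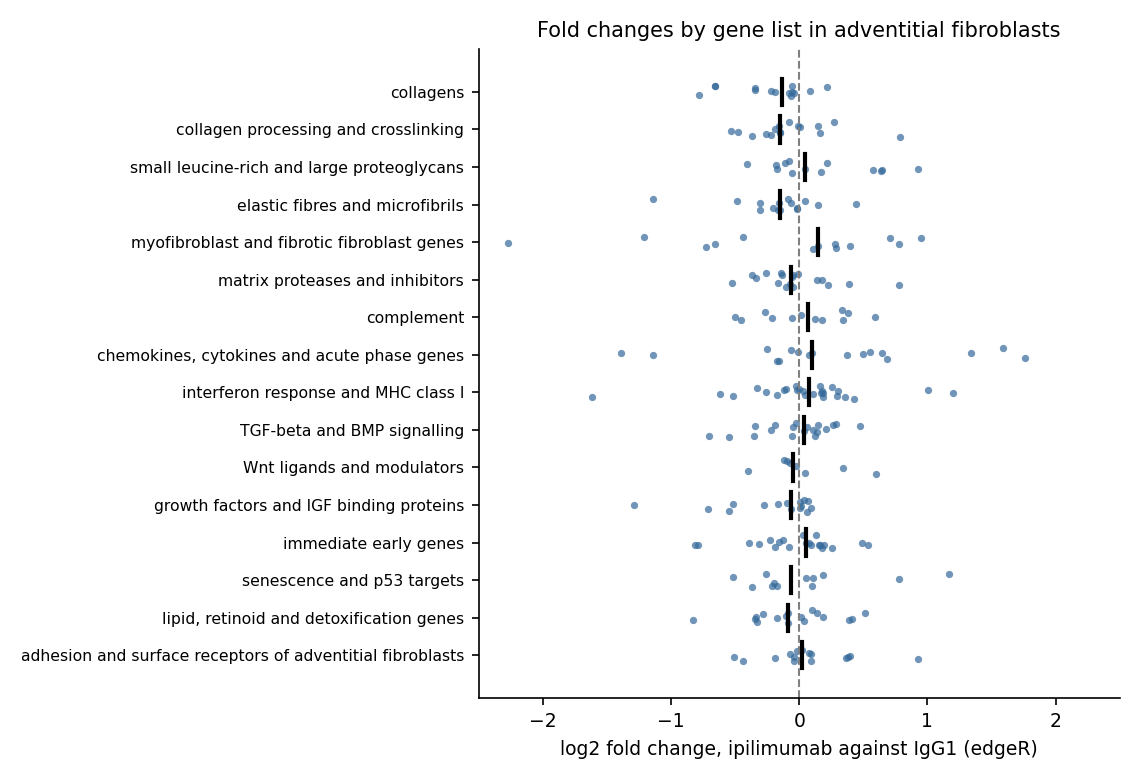
Log2 fold changes (edgeR, ipilimumab against IgG1) of the tested genes of each list in adventitial fibroblasts, 1 point per gene, with black bars at the list medians and a dashed line at the median of all 6270 tested genes. The medians lie between −0.15 and 0.14, and the chemokine, interferon and myofibroblast lists hold points on both sides of 0.

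Whether the treatment difference itself differed between adventitial and alveolar fibroblasts was tested with an interaction term in 5 mice, since IgG1 replicate 1 had only 3 alveolar barcodes. Of 7058 genes edgeR called 1 (0.0142%), Spp1, which encodes osteopontin, a matrix and cytokine-like protein of macrophages and injured tissue (chromosome 5, 104435118 to 104441050). Its UMIs in adventitial members were 2, 1451 and 3 with IgG1 and 1, 4 and 10 with ipilimumab, and in alveolar fibroblasts 0, 0 and 0 with IgG1 and 0, 4 and 16 with ipilimumab. A single barcode of IgG1 replicate 2 held 1448 of the 1451 UMIs. Without that barcode edgeR called 0 genes, 334 had an unadjusted p under 0.05, and DESeq2 was not run on that setting. With all barcodes DESeq2 called Fn1 in place of Spp1 (log2 difference −2.66, adjusted p = 0.0165), where edgeR gave −2.70 (adjusted p = 0.310). edgeR called Fn1 as well with no filter on low counts (−2.73, adjusted p = 0.00414). Without IgG1 replicate 2, which leaves a single IgG1 mouse in that fit, the difference was −3.27. Alveolar Fn1 in IgG1 replicates 2 and 3 was 74 and 20 UMIs (965 and 189 CPM), from 6 and 8 barcodes. In the ipilimumab mice it was 386, 89 and 217 UMIs (1113.5, 1077.5 and 1155.5 CPM). Of the 542 adventitial Fn1 UMIs of IgG1 replicate 2, 1 barcode held 293 and another 152. For Cxcl10 the difference between the types was −0.15 ± 0.63 and for Ccl2 −0.07 ± 0.87 (edgeR adjusted p = 1 for both), so differences of over 1 on the log2 scale in either direction were within the error.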

How the data were processed

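The deposited matrices hold UMI counts of 32285 genes for all barcodes of each library (709949 to 874198 barcodes and 37666042 to 48612412 UMIs per mouse), made by the authors with Cell Ranger against mm10. The submitters' processing notes give version 7.0.0, while the matrix headers and the published methods name other versions, so which one made the matrices is unsure. The authors' later steps against free RNA and low-quality cells come after these matrices and were not used, and no doublet caller was run. Members were gated in each library and their counts summed per mouse. Sums were tested with edgeR 4.0.16 in R 4.3.3 (quasi-likelihood test, robust, TMM factors, filterByExpr, Benjamini-Hochberg adjustment over all genes tested), and DESeq2 1.42.0 was an alternative. edgeR calls 0.0982% of unchanged genes in simulated sums. Shares were compared by exact two-sided permutation tests over mice, and intervals are 95% Clopper-Pearson and cover counting error only.

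The members and gene lists were chosen with earlier results of these data known. Genes were named by rule: those of the gate, any called, the 10 of smallest p whose mice do not overlap, the 4 most abundant of each list, and Acta2, Col1a1, Cdkn1a and Cdkn2a. Of the list members so named, those not printed had no call. Alternatives varied the scaling, the filter on low counts, the gate, the replicate block, the depth per cell and the mice. Coordinates are GENCODE annotation on GRCm38, the sequence of mm10. No sequence is printed, since no result turned on one.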

Additional observations from a re-analysis of the deposited data

Results flagged for a closer look

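Spp1 was flagged because its treatment effect differed between adventitial and alveolar fibroblasts in the interaction test, with a log2 difference of −14.18 (edgeR adjusted p = 0.00283, 5 mice). The alveolar fibroblasts of the IgG1 mice had no Spp1 UMI, so this fitted value depends on the prior count and is no bound. In IgG1 replicate 2, 1448 of 1451 adventitial Spp1 UMIs stood in 1 barcode, and without it the gene was not called. No group of mice was large enough to be examined for a single outlying sample.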

How the results depend on the processing

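The sums held 30 to 76 members a mouse and 3 mice a group. The 0 calls between treatments became 4 with DESeq2, 51 (45 higher, 6 lower) with no filter on low counts, where 17624 genes were tested, and 1 with the replicate number as a block (Ccl2, replicate block); the cause was not tested. Same-numbered mice correlated at 0.022, 0.10 and −0.009 in their deviations from the group means, and differently numbered mice at −0.15 to 0.14. With 3 mice a group, these values cannot decide whether the numbers pair mice. Leaving out each mouse gave 0 to 1 calls: Cxcl10 without IgG1 replicate 2, Gm42418 (lower) without ipilimumab replicate 1 and Cd74 without ipilimumab replicate 3. The other settings gave 0. Calls of the interaction were 11 with no filter on low counts, 0 without the barcode of most Spp1 UMIs and 0 to 13 leaving out a mouse, with 13 without IgG1 replicate 2, 2 without IgG1 replicate 3 and 0 without ipilimumab replicate 3. Since IgG1 replicate 1 is not in that fit, leaving out IgG1 replicate 2 or 3 leaves 1 IgG1 mouse, which is assumed to vary like the ipilimumab mice.

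The difference in the share of gated barcodes was −0.00821 points without barcodes with markers of other cell types, −5.80 with barcodes without Ptprc as the denominator, and −0.0380 to 0.577 leaving out each mouse. The difference among fibroblasts kept its sign, at −14.6 to −10.6 leaving out each mouse.

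Of 812 alternative values of 43 genes, 769 kept direction and stayed short of the threshold, 23 passed it and 20 were reversed. Without barcodes with markers of other cell types, log2 fold changes turned for Col14a1 (0.11), Fbln1 (0.080), Cdkn1a (−0.39) and Ly6a (0.011). With the alveolar genes at 0 they turned for Timp3 (0.070), Mmp3 (−0.56), Fbln1 (0.29), Cdkn1a (−0.29) and Wnt5a (0.036). They turned for B2m (−0.020) in members with a Pi16 UMI, and for Il6 (−0.067) and Igfbp3 (0.41) in members without a Hhip UMI. Leaving out each mouse, values ranged over 0 for B2m (−0.086 to 0.46), C3 (−0.18 to 0.58), Dcn (−0.32 to 0.029), Cdkn1a (−0.27 to 0.24), Igfbp3 (−1.24 to 0.37), Wnt5a (−0.75 to 0.017) and Sfrp1 (−0.045 to 0.57). The settings by Pi16, Hhip and the Spp1 barcode were chosen after seeing the data.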
